A study of Mus musculus with 20 samples.

Results

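The cells described here are the microglia of the unlesioned mouse retina. They are the 119 wells that the authors' annotation of the eye calls microglia, out of 429 wells in that annotation, 829 wells annotated in the series and 3840 wells sorted. All 119 come from control retina, and no other class of the eye annotation holds a well from retina. The animals of every group used here were C57BL/6 mice of 8 weeks, kept under specific pathogen-free conditions, and none of the eyes used here had a laser lesion. The control retina group gave the microglia, and unlesioned cornea and ciliary body gave macrophages (121 and 111 wells) for comparison. CD45+ cells, the leukocytes of a tissue, were sorted 1 to a well and counted by mCEL-Seq2, which tags each transcript at its 3' end with a molecular identifier. Per the design text the material came from 3 experiments and some 6 mice, but no label links a library to either. The p-values below therefore measure the spread between libraries, which may be technical.

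Microglia are the resident macrophages of nervous tissue, and in the retina they lie mainly in the layers of synapses. Signals through the colony stimulating factor 1 receptor and transforming growth factor beta keep them in a resting state in which fine processes survey the tissue. That state is known by the purine receptor P2ry12, the membrane protein Tmem119, the transcription factor Sall1, the fructose transporter Slc2a5 and the fractalkine receptor Cx3cr1.

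The 4 control libraries of 192 wells each are named here by the prefix in their titles, P1 for libraries 1 and 2 and P2 for libraries 3 and 4. They held 18, 15, 28 and 58 microglia. The eye table lists estimated transcripts, and the microglia sums of the libraries in it were 33654, 31335, 56000 and 89628. A well had a median of 1596 transcripts (range 1015 to 6082) from 1071 genes, against a median of 2718 in cornea macrophages and 5064 in ciliary body macrophages. Levels are CPM, transcripts scaled to 1000000 per library's microglia sum in that table, which lacks 276 genes that held 56.5% of the transcripts of these wells, Gm10800 and 15 mitochondrial genes among them. Mitochondrial genes held a median of 8.8% of all transcripts of a well (range 2.38 to 57.7%), and 108 of the 119 wells had at most 25%. No 2 wells held identical values. Because transcripts were counted at 3' ends, the CPM of different genes can be set side by side without a term for length.

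The label was checked against the 5 markers, of which 3 were found in most wells and 2 in fewer. P2ry12, which steers microglial processes toward released nucleotides, stood at 2914, 3546, 3201 and 3551 CPM in libraries 1 to 4 (mean 3303 ± 306.8, SD, n = 4 libraries) and was detected in 95.8% of wells. Tmem119, a membrane protein of unsettled function, stood at 1665, 1980, 1805 and 1875 CPM (1831 ± 132.1) and was detected in 89.9% of wells. Cx3cr1, the receptor through which neurons address microglia by fractalkine, stood at 3779, 3611, 4721 and 4267 CPM (4095 ± 501.9) with a transcript in 118 of 119 wells. The 3 genes ranked 18, 31 and 12 among all genes outside the mitochondrial and ribosomal protein sets. Sall1 stood at 564.7, 606.6, 678.8 and 580.3 CPM (607.6 ± 50.5) at rank 150 and was detected in 59.7% of wells. Slc2a5 was the lowest of the 5 at 208.1, 255.3, 267.9 and 345.9 CPM (269.3 ± 57.22), rank 478, with a transcript in 38.7% of wells. For each of the 5 the 4 libraries lay close together, and the order Cx3cr1, P2ry12, Tmem119, Sall1, Slc2a5 held in every library. Cx3cr1 and P2ry12 were nearest to each other in library 2. Of the 119 wells, 26 held all 5 markers, 53 held 4, 34 held 3 and 6 held 2. At least 3 markers were present in 95% of microglia, in 8 of 121 cornea macrophages, 20 of 111 ciliary body macrophages and 2 of 78 wells of the class that pools granulocytes with monocytes and lymphocytes. The markers match the label. The authors named their clusters on these same counts, so the marker levels are a check of names, not independent evidence.

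The promoters of the markers were read from RefSeq (build GRCm38.p6) because resting macrophage and microglial genes are textbook targets of the ETS factor PU.1. The reference table held P2ry12, Sall1 (3 windows), Slc2a5 and Cx3cr1, that is 4 of the 5 genes, and Tmem119 was not matched. The 250 bases before the start of the gene are shown for the 2 receptors and for Slc2a5, in lower case, 5' to 3' on the strand of the gene, with the ETS core GGAA, or TTCC where it lies on the other strand, in capitals.
P2ry12: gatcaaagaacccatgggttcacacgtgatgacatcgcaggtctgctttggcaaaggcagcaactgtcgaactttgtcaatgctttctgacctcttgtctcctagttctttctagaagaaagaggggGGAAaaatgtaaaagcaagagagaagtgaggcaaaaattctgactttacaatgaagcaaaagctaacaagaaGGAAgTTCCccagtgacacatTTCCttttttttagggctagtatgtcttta
Cx3cr1: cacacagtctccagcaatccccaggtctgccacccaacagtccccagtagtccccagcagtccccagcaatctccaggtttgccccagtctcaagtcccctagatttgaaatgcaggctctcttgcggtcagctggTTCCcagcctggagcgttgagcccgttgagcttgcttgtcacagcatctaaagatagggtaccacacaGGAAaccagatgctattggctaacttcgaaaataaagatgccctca
Slc2a5: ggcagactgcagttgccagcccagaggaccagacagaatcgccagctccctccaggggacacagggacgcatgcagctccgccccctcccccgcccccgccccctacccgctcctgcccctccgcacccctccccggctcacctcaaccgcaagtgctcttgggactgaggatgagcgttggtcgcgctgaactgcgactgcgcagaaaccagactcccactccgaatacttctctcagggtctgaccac
They lie at chr3:59262986-59263235 (minus strand), chr9:120068297-120068546 (minus strand) and chr4:150119094-150119343 (plus strand). The core occurs 4 times before P2ry12, 2 times before Cx3cr1 and not at all before Slc2a5. It is a common sequence, since 93.4% of 32851 promoter windows hold it on either strand, with a median of 3. The longer PU.1 core GAGGAA and the composite ETS and IRF element GGAANNGAA, searched on both strands over the 300 bases from 250 before to 50 after the start, were in none of the 6 windows of these 4 genes. They are in 28.3% and 8.24% of all windows. The search for GGAA was added after that result was seen.

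**Figure D1:**
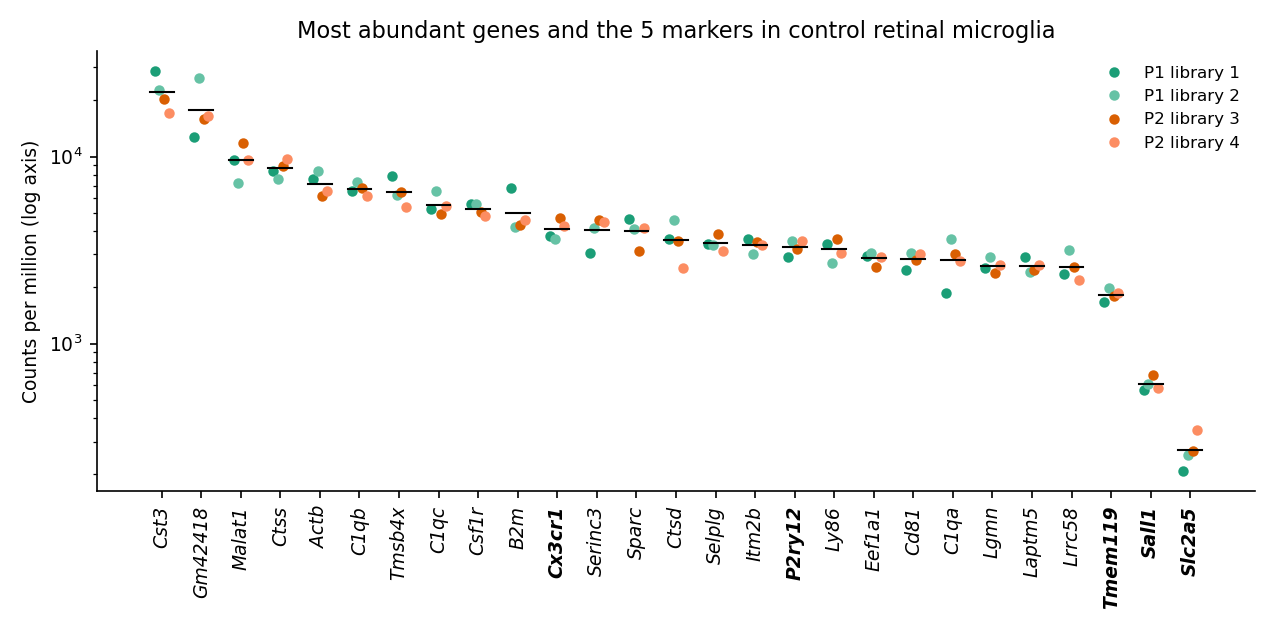
Levels (CPM, log axis) of genes from the 25 most abundant that are neither mitochondrial nor ribosomal and of the 5 markers (bold). Each point is 1 control library, green for P1 and orange for P2, and each black bar the mean of 4. The markers span from 4095 CPM for Cx3cr1 to 269.3 for Slc2a5, and Cst3 and Gm42418 head the ranking with visibly wider spread between libraries.

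The ranking was led by secreted and lysosomal proteins. Cst3, the secreted cathepsin inhibitor cystatin C, stood first at 28740, 22620, 20420 and 17080 CPM (mean 22210 ± 4911) and was present in every well. Ctss, the cathepsin that acts at neutral pH, stood at 8649 ± 906.4 CPM. The 3 chains of complement C1q, the recognition unit of the classical pathway, were all among the 25 leading genes: C1qb at 6715 ± 472.6, C1qc at 5541 ± 702.8 and C1qa at 2814 ± 720.9 CPM. Sparc, a secreted matrix protein that microglia share with few other immune cells, stood at 4647, 4122, 3146 and 4133 CPM (4012 ± 627.1). Ctsd, an aspartic protease of the lysosome, was at 3575 ± 849.9 and the legumain gene Lgmn at 2615 ± 223.9 CPM. The 26 genes of the secreted and lysosomal list together held 80770 ± 5009 CPM, and all 26 had a transcript.

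Second in rank stood Gm42418, a locus that overlaps a ribosomal RNA sequence, at 12730, 26210, 15870 and 16510 CPM, with library 2 well above the others. The nuclear noncoding RNA Malat1 was at 9549 ± 1905 CPM. Actb and Tmsb4x, which encode actin and the actin-binding thymosin beta 4, stood at 7179 ± 1004 and 6486 ± 1046 CPM. B2m, the light chain of MHC class I, stood at 6827 CPM in library 1 and between 4221 and 4581 in the other 3. Csf1r, the receptor on whose signal microglia depend for survival, was at 5597, 5594, 5080 and 4825 CPM (5274 ± 385.3), the highest of the receptors. Selplg, the selectin ligand PSGL-1, stood at 3441 ± 307.7, the tetraspanin Cd81 at 2828 ± 260.4 and the lysophospholipid receptor Gpr34 at 1964 ± 461 CPM. The list of sensing receptors also counts the enzyme gene Ltc4s and the adaptor gene Tyrobp. All 30 genes of the list had a transcript in at least 10% of wells, and together they held 36460, 40180, 40430 and 38970 CPM.

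Of the 16 transcription factors listed for microglia, 15 had a transcript. Maf, which governs macrophage maturation, stood at 913.6 ± 199 CPM, Irf8 at 903.3 ± 167, Mef2a at 692.6 ± 161 and Mef2c at 643 ± 152. As a group they held 6528 ± 344.3 CPM, far less than the receptors.

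Abundance was concentrated in few genes. Of 16471 named genes in the table, 13714 had a transcript in at least 1 microglia well, 9 had one in every well, 33 in at least 90%, 268 in at least 50% and 3537 in at least 10%. The 25 leading genes held 15% of the transcripts in the table and the 100 leading genes 23.9%, with ribosomal protein genes at 4.82%.

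Detection depends on depth, so each well was also thinned at random to 1000 transcripts, which every annotated well reached. At that depth Cx3cr1 was detected in 96.6% of microglia, 33.9% of cornea macrophages and 45.0% of ciliary body macrophages. P2ry12 was detected in 92.4%, 8.26% and 13.5%, and Tmem119 in 79.8%, 9.09% and 11.7%. Sall1 was found in 44.5% of microglia, in none of the cornea macrophages and in 3.60% of ciliary body macrophages, and Slc2a5 in 23.5% of microglia and in none of either. Genes of high level in microglia were not all rare elsewhere. Cd81 was present in 33.1% of thinned cornea and 35.1% of thinned ciliary body macrophages, and Sparc in 22.3% and 13.5%. These shares are given without a test, because wells of a library are not replicates.

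**Figure D2:**
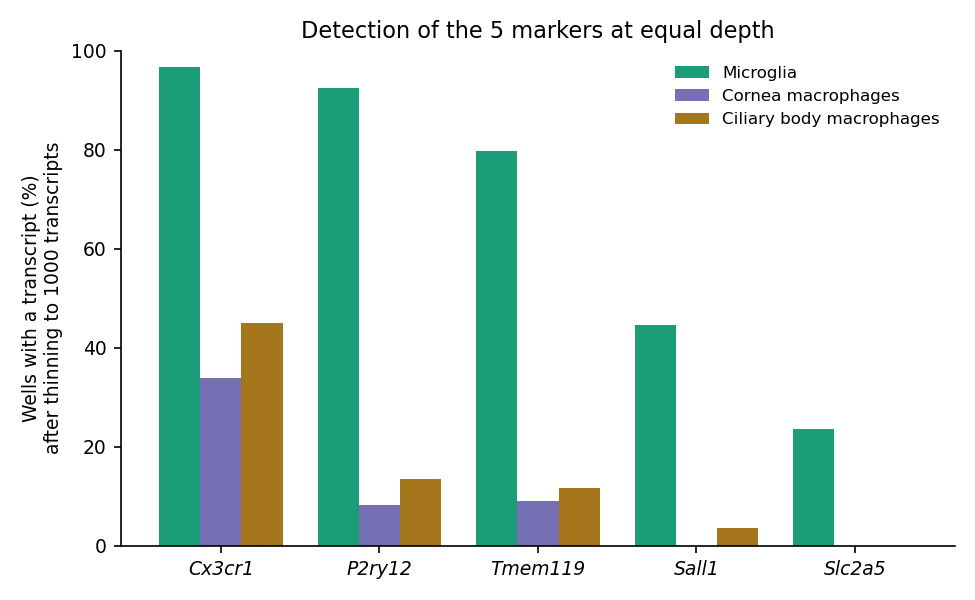
Share of wells (%) with at least 1 transcript of each marker after every well was thinned to 1000 transcripts, for microglia, cornea macrophages and ciliary body macrophages. Cx3cr1 is the least selective of the 5, at 96.6% against 33.9 and 45.0%. Among the classes shown, Slc2a5 was met in microglia alone at this depth.

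Genes that rise in microglia around lesions and in disease were present at uneven levels. Of the 24 genes of the disease-associated list, 21 had a transcript and the list held 11140 ± 618.1 CPM. Its leading members were lysosomal or general: the cathepsin B gene Ctsb at 1865 ± 203, the tetraspanin Cd9 at 1823 ± 380, the ferritin chain Fth1 at 1663 ± 252 and Ctsl at 974.5 ± 176 CPM. Apoe, the lipid carrier, stood at 445.9, 830.6, 1036 and 815 CPM (781.9 ± 246).

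Cytokine and chemokine genes, together with the feedback inhibitors of NF-kB on that list, held 1843, 1724, 2090 and 2366 CPM, and 105 of 119 wells had at least 1 transcript of the 20 genes. The leading members were Zfp36, which encodes a protein that destabilises cytokine messages, at 418.9 ± 53 CPM, the chemokine gene Ccl3 at 260.8 ± 57.7 and the inhibitor gene Nfkbia at 217.1 ± 81. Ccl4, the neighbour of Ccl3, stood at 416.7, 0, 196.5 and 78.11 CPM. Its transcripts were in 10.9% of wells, and 5 wells held 75.0% of them. Immediate early genes, which respond within minutes to stimulation or handling, held 5802 ± 256.6 CPM, led by Rhob at 972.4 ± 408, Jun at 903.9 ± 212 and Junb at 670.3 ± 306. Heat shock genes held 2350 ± 403.8 CPM, with the endoplasmic reticulum chaperone gene Hspa5 first at 701.9 ± 124.

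Antigen presentation was uneven between its classes. The MHC class I list held 7371 ± 1361 CPM, most of it B2m. The MHC class II list held 5027 and 3480 CPM in the P1 libraries and 2179 and 2065 in the P2 libraries, so the prefixes did not overlap, as was the case for 37.9% of all 807 genes tested between them. In cornea and ciliary body macrophages no library held less than 49850 CPM of it. Interferon response genes held 698.3 ± 110.5 CPM, with a transcript in 68 of 119 wells and Bst2, the antiviral tetherin, highest at 142.4 ± 85.5. Cell cycle genes held 1065 ± 310.8 CPM, of which the tubulin gene Tubb5 alone made 354 ± 26.6.

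Markers of cells that a CD45+ gate should exclude were also read. The 20 photoreceptor genes, among them those of the transducin of rods, had a transcript in all 119 wells and summed to 8863, 4661, 9363 and 13700 CPM. Gnat1, the alpha subunit of that transducin, stood at 1874, 925.8, 1376 and 1876 CPM and was detected in 89.1% of wells. The list summed to between 292.8 and 2496 CPM in the cornea libraries and between 269.6 and 1254 in the ciliary body libraries. In the wells of the same control libraries that are not microglia it summed to 115100, 94650, 93560 and 89320 CPM of the table's genes, over 174, 177, 164 and 134 wells with medians of 401.0 to 571.4 transcripts over all genes. Microglia thus held far less of these transcripts than the other wells of their libraries, and more than leukocytes of the front of the eye. How these transcripts came to be in the wells was not tested.

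The 8 corneal epithelium markers summed to 118.9 and 159.6 CPM in the P1 libraries and to 1429 and 1976 in the P2 libraries. Wells with any of them numbered 3 of 18 and 3 of 15 in P1 and 22 of 28 and 38 of 58 in P2, and the most in a well was 2, 3, 20 and 26 transcripts. In the wells outside the microglia class of the same libraries the list summed to 392.0, 1168, 8414 and 4944 CPM, so the difference between prefixes was seen in those wells too. The P2 prefix also names a pair of cornea libraries, in which, as in the other pair, cornea macrophages held 17000 to 31040 CPM of the list.

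Markers of other leukocytes were low beside the microglial markers, but not every list was lower than in the macrophages. Of 16 genes of border and perivascular macrophages 5 had a transcript, 7 were at 0, the mannose receptor Mrc1, Lyve1, Cd163 and Ms4a7 among them, and 4 had no named row in the table. The list summed to 290.1 to 446.5 CPM against 1359 or more in each cornea and ciliary body library. Of 15 T and NK cell genes 7 were at 0, 3 had no named row and the other 5 summed to 59.44 to 543.0 CPM. That list summed to 128.8 to 357.3 CPM in the cornea and 93.88 to 256.4 in the ciliary body libraries. The 13 monocyte markers summed to 118.9 and 95.75 CPM in P1 and 535.9 and 424.2 in P2, where S100a6, a calcium-binding protein that epithelia also make, held most of it. The neutrophil and mast cell list summed to 663.6 ± 90.32 CPM. Csf3r, the receptor for granulocyte colony stimulating factor, held 627.1 ± 61.8 of that and was detected in 65.5% of wells, while the calprotectin genes S100a8 and S100a9 were at 0 and 13.4 CPM. Ighm, an immunoglobulin heavy chain gene, was at 312 ± 115 CPM and in 35.3% of wells, and the B cell list summed to 336.2 ± 84.17 CPM. The B cell list held at least 212.0 CPM in each microglia library, and at most 182.4 in a cornea and 185.5 in a ciliary body library. Of its other genes Cd79b and Pax5 had a transcript, at 21.4 and 2.79 CPM, Ms4a1 and Ebf1 were at 0 and 3 had no named row.

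How far wells differ was measured on the wells thinned to 1000 transcripts, as the variance divided by the mean within each library, which is near 1 for counting error alone. Over the 3537 genes found in at least 10% of wells the median was 1.02, and 32 genes exceeded 2. The ratio rises with the level of a gene and with depth. For genes of low level a value near 1 therefore does not show that wells are alike. By this ratio the marker Tmem119 (1.03) and the phagocytic receptor Trem2 (1.03) were among the 10 lowest of the 100 most abundant genes. Ppia and Ctsc were at 0.935 each and the lowest gene at 0.914. P2ry12 stood at 1.72 and Cx3cr1 at 1.74. In library 2 alone P2ry12 (0.916) was below Tmem119 (1.0), and with thinning to 2000 transcripts Tmem119 was at 1.75, near P2ry12 at 1.91, with Cx3cr1 at 2.53.

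The genes with the highest ratios were of several kinds. Gsto1, a glutathione transferase, had the highest ratio at 16.1, which was 3.96 without library 4 and 2.33 after thinning to 2000 transcripts. Lrrc17, a secreted leucine-rich repeat protein, had a ratio of 8.26 and stood at 29.72 CPM in library 1 and 1440, 608, and 1140 CPM in libraries 2 to 4. Mc1r, the melanocortin receptor best known from pigment cells, had a ratio of 6.73 that fell to 1.54 without library 3 and 4.17 without library 2, and it stood at 0, 0, 1307 and 212 CPM. Mme, which encodes the peptidase neprilysin, had a ratio of 4.41. It was detected in 57.1% of wells, and 5 wells held 43.9% of its transcripts. Nkain3, a partner of the sodium pump, had a ratio of 5.66, which was 3.29 without library 4 and 9.0 without library 3. Cst3 (3.96), Gm42418 (6.65), Malat1 (2.74) and Lars2 (2.89), all of high level, also exceeded 2. Since the ratio rises with level, it does not show that they vary more, relative to their level, than less abundant genes. The keratins Krt6a (4.94) and Krt12 (2.76) and the skin protease Asprv1 (3.19) were found in P2 wells alone. Asprv1 was at 1.87, 2.06 and 1.99 without libraries 1, 2 and 3. Ccl4 (4.98) and Clec7a (3.29), which encodes the fungal receptor dectin-1, fell to 1.71 and 1.08 without library 1.

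With thinning to 2000 transcripts, which leaves 31 wells, 113 of 3526 genes exceeded 2. There Gm42418 (17.3), Mc1r (12.9), Mme (10.5), Cst3 (7.96) and Lrrc17 (7.5) led the genes named above, and Krt6a (1.44), Clec7a (1.74) and Asprv1 (0.945) did not exceed 2. Across the 119 wells Krt12 went with Krt6a (Spearman correlation 0.525) and Mme with Nkain3 (0.467), both as shares of a well's transcripts from wells that share 4 libraries.

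The authors' clusters split the 119 wells over 3 numbers. Cluster 13 held 32 wells (26.9%, exact 95% Clopper-Pearson interval 19.2 to 35.8%), cluster 14 held 53 (44.5%, 35.4 to 53.9%) and cluster 15 held 34 (28.6%, 20.7 to 37.6%), and no well of another class was in any of the 3. The split differed between libraries. Cluster 13 held 8 of 18, 0 of 15, 9 of 28 and 15 of 58 wells of libraries 1 to 4, or 44.4, 0, 32.1 and 25.9%. The 0 of library 2 allows a share of up to 20%, counting error only. Cluster 14 held 33.3, 53.3, 35.7 and 50%, and cluster 15 held 22.2, 46.7, 32.1 and 24.1%.

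**Figure D3:**
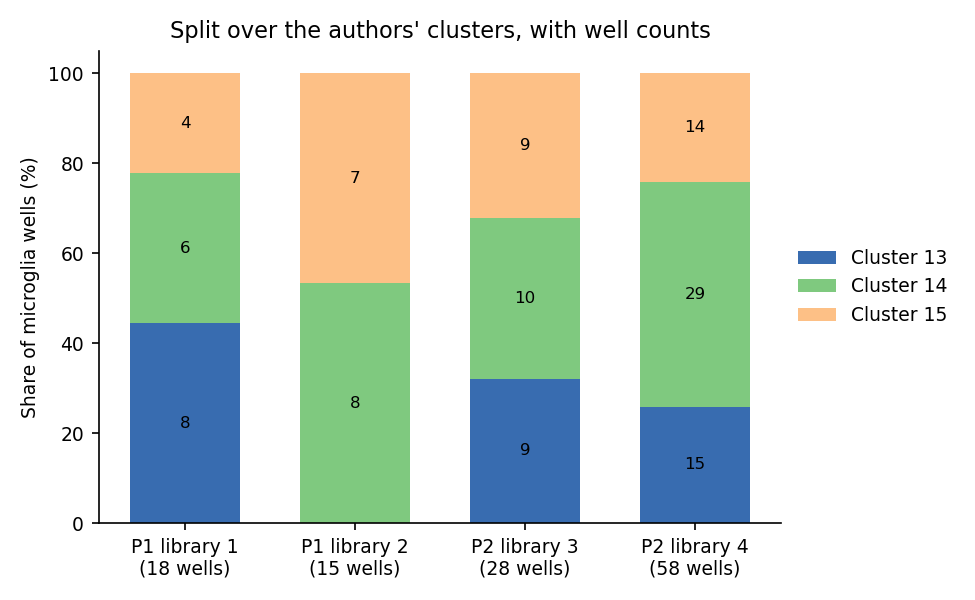
Share of the microglia wells of each control library (%) in the authors' clusters 13, 14 and 15, with the number of wells in each part of a bar. Library 2 has no well in cluster 13, and the other libraries have wells in all 3.

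All 3 clusters carried the microglial markers. P2ry12 stood at 3176, 3552 and 3241 CPM of the summed wells of clusters 13, 14 and 15, Sall1 at 641.3, 589.8 and 602.2 and Tmem119 at 1739, 2148 and 1481. Cx3cr1 was at 5019, 4311 and 3290 CPM. The 5 markers summed to 10960, 10800 and 8940 CPM. Among abundant genes the clusters differed in Gm42418, at 7137 CPM in cluster 13, 14250 in cluster 14 and 31160 in cluster 15. Lars2, a mitochondrial leucyl-tRNA synthetase, followed the same order at 861.0, 957.5 and 1824 CPM. Cst3 was at 27030 CPM in cluster 13 and 18050 and 18310 in the others.

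Cluster 13 also held more Scarb2, a lysosomal membrane protein, at 489.4 CPM against 200.3 and 162.7, and more Nfkbia, at 438.9 against 166.9 and 179.0, both chosen after their values were seen. Sall3, the relative of Sall1, was lower there at 135.0 against 333.8 and 276.6 CPM. The photoreceptor list summed to 11110, 7579 and 13950 CPM in clusters 13, 14 and 15 and ribosomal protein genes to 44560, 46880 and 53490. Median transcripts per well were alike at 1607, 1483 and 1584, and the median mitochondrial share was 8.35, 8.12 and 11.8%. Of the wells with at most 25% mitochondrial transcripts, 29.6, 44.4 and 25.9% were in clusters 13, 14 and 15. The clusters were drawn from these counts, so their differences in expression are described without a test, and the part that library 2, mitochondrial share or photoreceptor transcripts plays in them was not tested.

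The authors annotated retina a second time, with its own clusters. Of the 119 wells 111 are in that annotation, all as microglia, and its separate call by signature also named 109 of them (98.2%) microglia. Cluster 14 went mainly to retina cluster 4 (43 of 53 wells) and cluster 15 to retina cluster 5 (26 of 34). Cluster 13 was divided, with 20 of 32 wells in retina cluster 3 and 8 in cluster 4.

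The labels give 1 grouping within control retina, the title prefix, and the microglia sums of the 2 P2 libraries were compared with those of the 2 P1 libraries. Of 807 genes tested, 11 were higher in P2 (1.36%) and 8 lower (0.991%), 2.35% in either direction, by edgeR's quasi-likelihood test at a Benjamini-Hochberg adjusted p under 0.05, with 2 residual degrees of freedom, 78 genes at an unadjusted p under 0.05 and 7 and 3 calls by DESeq2. None of the 5 markers passed (edgeR adjusted p from 0.722 to 0.983), and none of the tested sensing receptors (27), transcription factors (9), secreted and lysosomal genes (21) or disease-associated genes (13) did. For the resting markers a difference between prefixes was not detectable at this depth.

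Among the genes higher in P2 were 2 keratins. Krt12, the keratin of corneal epithelium, stood at 803.8 and 937.4 CPM in libraries 3 and 4 and at 0 in libraries 1 and 2, at least 18.9-fold higher (floor of 3 transcripts over the P1 group; edgeR adjusted p = 2.88e-06). Krt6a, a keratin of stratified epithelium, stood at 750.2 and 837.0 CPM against 0 and 0, at least 17.2-fold higher (edgeR adjusted p = 4.03e-06). The 2 keratins were thus present in both P2 libraries and absent from both P1 libraries. Aldh3a1, a corneal aldehyde dehydrogenase, was at least 11-fold higher, Asprv1 at least 7.42-fold and the epithelial membrane gene Emp1 at least 6.00-fold, each from 0 in P1. Gsto1 stood at 607.3 and 1127 CPM against 0 and 95.76, a ratio of 20.1 with a counting interval of 6.73 to 98.6 over 3 P1 transcripts (edgeR adjusted p = 0.000127). Its transcripts were in 7 of 28 and 23 of 58 P2 wells, and 1 well held 34.2% of all its transcripts in microglia. The counting interval leaves out this spread between wells. S100a6 had a ratio of 12.7 (3.36 to 108) over 2 P1 transcripts. Of the 8 corneal epithelium markers, Krt12 and Aldh3a1 were tested. They entered the test through P2, where they are high, so their calls say nothing of the list.

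Of 11 tested photoreceptor markers 2 were also higher in P2. Gngt1, the gamma subunit of rod transducin, stood at 1000 and 1585 CPM against 416.1 and 319.2 (log2 1.84 ± 0.36, SE; edgeR adjusted p = 0.00266). Pdc, which encodes the transducin-binding phosducin, stood at 1536 and 1540 CPM against 594.4 and 319.2 (log2 1.75 ± 0.33; edgeR adjusted p = 0.0021). Alox5ap, the activating protein of leukotriene synthesis, has a role in leukocytes and was also higher (log2 1.78 ± 0.48; edgeR adjusted p = 0.0429), and it passed in 2 of 10 alternative settings.

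Lower in P2 were 2 MHC class II chains, Syt11 and 5 loci known by clone or gene-model names. H2-Ab1 stood at 267.9 and 357.1 CPM in P2 against 1159 and 798.0 in P1 (log2 -1.60 ± 0.33; edgeR adjusted p = 0.00441), and H2-Eb1 at 732.4 and 669.6 against 1813 and 1277 (log2 -1.13 ± 0.29; edgeR adjusted p = 0.0316). The P2 values lay below both P1 values for each chain, as they did for 306 of all 807 genes in either direction (37.9%). The calls were fragile, since H2-Ab1 passed in 5 of 11 alternative settings and H2-Eb1 in 3 of 11. Syt11, a synaptotagmin of intracellular vesicles, stood at 339.4 and 256.7 CPM against 951.1 and 1053 (log2 -1.75 ± 0.32; edgeR adjusted p = 0.0016), and was past the threshold in 8 of 11 settings but not without library 4 (edgeR adjusted p = 0.058). The loci Gm43541 (log2 -4.24 ± 0.42; edgeR adjusted p = 5.65e-07) and RP23-271M19.2 (17.86 and 0 CPM against 505.3 and 606.5) showed the largest falls. Aldh3a1 also missed the threshold without library 4 (edgeR adjusted p = 0.492).

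**Figure D4:**
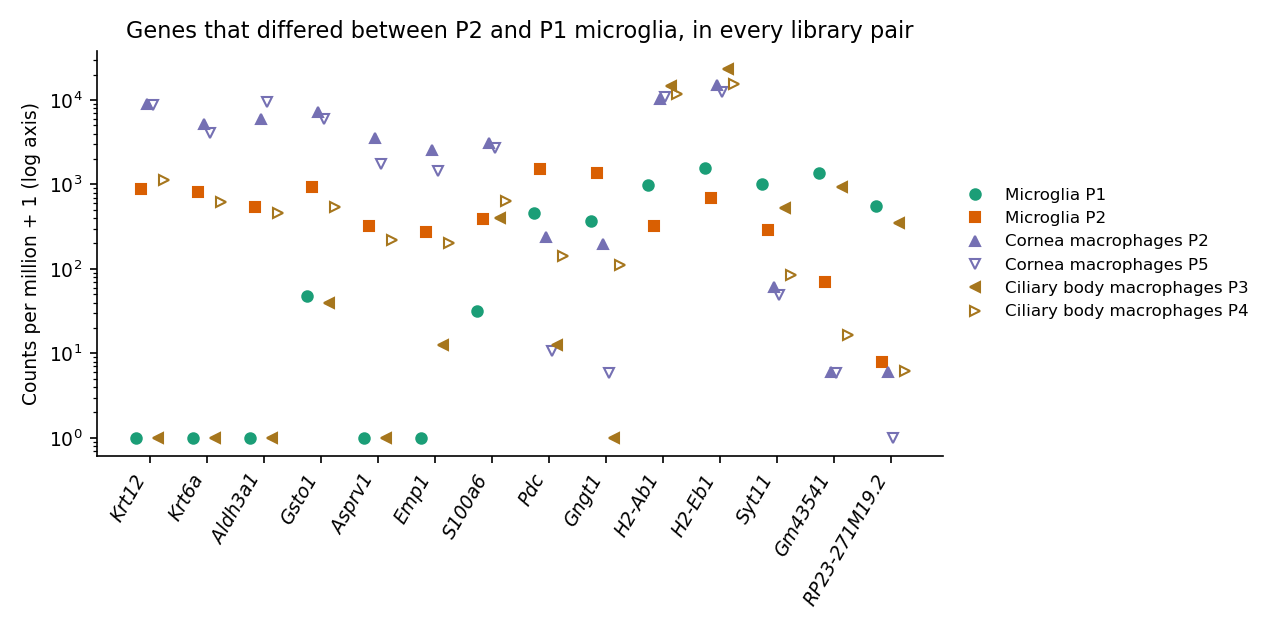
CPM plus 1 on a log axis for 14 genes that differed between P2 and P1 microglia, in each library pair of microglia, cornea macrophages and ciliary body macrophages. Krt12, Krt6a, Aldh3a1 and Asprv1 are at 0 in microglia P1 and ciliary body P3, and present in every other pair.

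The same genes were read in the macrophages of the other tissues. Krt12 stood at 8934 and 8680 CPM in the cornea pairs P2 and P5, at 1124 in ciliary body pair P4 and at 0 in ciliary body pair P3. Krt6a followed at 5147, 4061, 613.8 and 0 CPM. Gm43541 had the reverse order, at 919.5 CPM in ciliary body P3 and 1370 in microglia P1, and 15.54, 4.963 and 4.857 in ciliary body P4 and cornea P2 and P5, with microglia P2 at 68.68. The pairs P1 and P3 therefore shared low keratin and high Gm43541, although they came from different tissues. Whether a prefix stands for an animal, a plate or a day is not in the labels, so these cannot be told apart.

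Where microglia stand apart from macrophages of unlesioned eye was tested on sums per library pair, 2 pairs to a class, in 1 fit with 3 residual degrees of freedom. Tissue and class go together here and cannot be told apart, and the authors' names rest on these counts, so the marker differences are not independent evidence. Both comparisons use the same microglia sums. Against cornea macrophages 745 of 4705 genes were higher in microglia (15.8%) and 812 lower (17.3%), or 33.1% in either direction, at a median log2 difference of -0.05 over all genes. Against ciliary body macrophages 592 were higher (12.6%) and 780 lower (16.6%), or 29.2%, at a median of 0.03. DESeq2 called 389 and 559, and 311 and 535. The edgeR shares of all genes are the background for each count of list members below. From a sum alone, fewer cells with a transcript and fewer transcripts per cell cannot be told apart. Shares of thinned wells were given above for some genes, without a test.

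All 5 markers were higher in microglia in both comparisons. P2ry12 stood at 3217 and 3420 CPM in the microglia pairs, 104.2 and 63.14 in cornea and 103.9 and 121.7 in ciliary body macrophages (log2 5.08 ± 0.36 and 4.58 ± 0.34, SE, n = 2 pairs; edgeR adjusted p = 3.71e-07 and 5.7e-07). Sall1 stood at 584.8 and 618.1 CPM and at 0 in both cornea pairs, at least 81.7-fold higher (edgeR adjusted p = 1.61e-06), and at 3.847 and 25.9 in ciliary body macrophages (log2 4.86 ± 0.46; edgeR adjusted p = 3.07e-06). Slc2a5 was at least 37.1-fold higher than in cornea macrophages, where it was at 0. Against the ciliary body it had a ratio of 187 over 1 transcript (counting interval 32.4 to 7510). Tmem119 differed by log2 3.76 ± 0.32 and 3.60 ± 0.31 and Cx3cr1 by 2.75 ± 0.32 and 2.15 ± 0.31, with no overlap of pairs for any marker, as in 68.2% and 67% of all genes. Cx3cr1 showed the smallest difference of the 5, with 427.4 to 808.0 CPM in the macrophages. The 5 calls held under every alternative setting of both comparisons.

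Most sensing receptors of the list were higher in microglia. The list also counts the enzyme gene Ltc4s, which rose in both comparisons. Against cornea macrophages 21 of the 30 listed genes rose and 2 fell (median log2 1.64). Against ciliary body macrophages 18 rose and 0 fell (1.59). The other 7 and 12 did not pass, and C5ar1 and Csf2ra were the 2 that fell, named after their values were seen. Without microglia pair P2 none fell against cornea macrophages, without either cornea pair 1 fell, and without ciliary body pair P3 1 fell against the ciliary body. Selplg stood at 3386 and 3414 CPM in microglia against 223.3 and 213.7 in cornea and 296.3 and 290.1 in ciliary body macrophages (log2 3.73 ± 0.31 and 3.24 ± 0.30). Gpr34 differed by 4.10 ± 0.35 and 3.83 ± 0.34, Cd81 by 2.46 ± 0.30 and 2.48 ± 0.30 and Csf1r by 1.81 ± 0.29 and 1.82 ± 0.29. With sums thinned to the smallest, 12 and 13 of 27 tested receptors still rose.

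Transcription factors were split. Of 15 tested, 9 rose and 1 fell against cornea macrophages (median log2 1.10), and 8 rose and 2 fell against ciliary body macrophages (1.25). Maf rose by log2 1.53 ± 0.32 and 1.51 ± 0.32 and Mef2a by 1.36 ± 0.30 and 1.25 ± 0.30. Irf8 rose against cornea macrophages (log2 1.40 ± 0.36) and did not pass against the ciliary body (0.48 ± 0.34; edgeR adjusted p = 0.313). Sall3 had a ratio of 106 (counting interval 18.3 to 4280) over 1 transcript in cornea macrophages and 169 (29.0 to 6780) over 1 in the ciliary body. Cebpb, which drives inflammatory genes, fell by 2.17 (SE 0.51) and by 1.73 (SE 0.52) on the log2 scale. Spi1, the gene of PU.1, was the other that fell against the ciliary body, and it did not pass against the cornea. Both were named after their values were seen.

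Secreted and lysosomal genes rose in 12 of 23 tested cases in each comparison and fell in none. Without cornea pair P5 the rises were 7 of 24, and without ciliary body pair P4 they were 7 of 24 with 1 fall. Sparc stood at 4402 and 3757 CPM against 233.3 and 218.6 in cornea and 115.4 and 217.6 in ciliary body macrophages (log2 3.94 ± 0.34 and 4.31 ± 0.35). Cst3 differed by 2.49 ± 0.34 and 1.18 ± 0.33. C1qc passed in both (1.04 ± 0.28 and 1.43 ± 0.28), whereas C1qb passed against the ciliary body alone (0.84 ± 0.30; edgeR adjusted p = 0.0455) and not against the cornea (0.68 ± 0.30; edgeR adjusted p = 0.0927), a difference between the 2 contrasts that was not itself tested.

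Further large rises lay outside the lists. Nav3, a neuron navigator, stood at 430.9 and 315.9 CPM in microglia with 1 transcript in cornea and 2 in ciliary body macrophages. Lrrc17 was at 708.0 and 934.1 CPM against 9.926 and 4.857 in cornea and 30.78 and 15.54 in ciliary body macrophages (log2 4.92 ± 0.40 against the latter). This was a gene of few microglia, found in 27.7% of wells, with 59.4% of its transcripts in 5 wells. Within the first microglia pair it stood at 29.72 CPM in library 1 and 1440 in library 2. Serpine2, a secreted protease inhibitor, was at 538.7 and 364.0 CPM against 11.54 and 10.36 in the ciliary body (4.99 ± 0.46). The adhesion receptor Adgrg1 (400.2 and 370.9 CPM) and the carbohydrate-responsive factor Mlxipl (400.2 and 419.0 CPM) were among the largest rises against the ciliary body, and Syngr1, Chst1 and Fam212a, each at 0 in cornea macrophages, among those against the cornea.

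**Figure D5:**
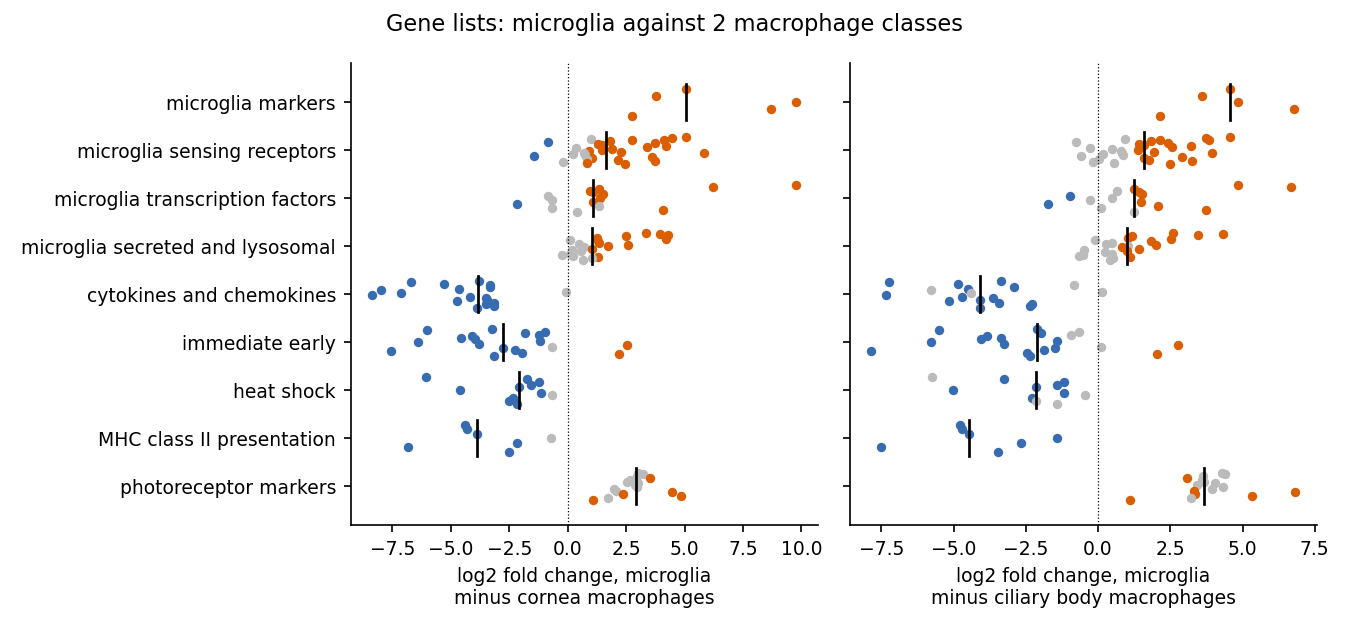
log2 difference of each tested member of 9 gene lists, microglia minus cornea macrophages (left) and microglia minus ciliary body macrophages (right). Orange points rose, blue points fell and grey points did not pass at an adjusted p of 0.05, and black bars are medians. Values of genes at 0 in a class are fitted and depend on the prior count. The medians of the marker, receptor and secreted lists lie to the right and those of the cytokine, immediate early, heat shock and class II lists to the left in both panels.

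Inflammatory genes were far lower in microglia. Of 18 cytokine and chemokine genes tested, 17 fell against cornea macrophages and 14 against ciliary body macrophages, and none rose (median log2 -3.84 and -4.09, or -3.64 and -3.86 with the gene at 0 set to its bound). In the prefix comparison, of microglia alone, 3 of the 20 listed genes passed the filter on low counts. The others may have entered here through the macrophages, where they are high, so these counts say nothing of the list. Summed over the 20 genes, no microglia library held more than 2366 CPM. No cornea library held less than 25690 and no ciliary body library less than 18530. Cxcl2, a neutrophil attractant, stood at 0 and 34.34 CPM in microglia, 5643 and 7883 in cornea and 2547 and 3792 in ciliary body macrophages (log2 -8.38 ± 0.57 and -7.34 ± 0.56). Ccl4 stood at 215.5 and 123.6 CPM against 3092 and 3750 in cornea and 2374 and 3657 in ciliary body macrophages. Nfkbia fell by 3.46 (SE 0.37) and by 4.10 (SE 0.38) on the log2 scale and Ccl3 by 3.31 (SE 0.35) and by 2.91 (SE 0.34). Ccl12 did not pass (log2 -0.08 ± 0.41 and 0.14 ± 0.40). Whether some of its reads belong to its neighbour Ccl2 was not tested.

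Genes that respond to stimulation and handling moved the same way. Of 19 immediate early genes 16 fell and 2 rose against cornea macrophages (median log2 -2.76), and 14 fell and 2 rose against the ciliary body (-2.13). Junb stood at 538.7 and 741.8 CPM in microglia against 1821 and 2074 in cornea and 1627 and 2613 in ciliary body macrophages. Dusp6, which dephosphorylates ERK kinases, and Rhob, a small GTPase of endosomes, were the 2 that rose, Dusp6 by log2 2.55 ± 0.35 and 2.75 ± 0.34 and Rhob by 2.18 ± 0.34 and 2.05 ± 0.33. Of 11 heat shock genes 10 fell against cornea macrophages and 7 against the ciliary body. Hsp90ab1, a cytosolic chaperone, stood at 400.2 and 398.4 CPM against 1251 and 1632 in cornea and 1243 and 1673 in ciliary body macrophages. With sums thinned to the smallest, 3 of 8 tested heat shock genes fell in each comparison. In microglia alone 10 of the 20 immediate early and 3 of the 12 heat shock genes passed the filter on low counts. Others may have entered through the macrophages, so these counts say nothing of the 2 lists. Whether sorting and dissociation differed between the tissues was not tested.

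MHC class II genes fell in 6 of 7 cases against cornea macrophages and in 7 of 7 against the ciliary body. Of all genes 17.3 and 16.6% fell. In microglia alone 4 of the 7 passed the filter on low counts, so others may have entered through the macrophages, where they are high. H2-Aa stood at 1170 and 680.0 CPM in microglia, 17460 and 14870 in cornea and 23550 and 17020 in ciliary body macrophages (log2 -4.38 ± 0.38 and -4.79 ± 0.38). Cd74, the invariant chain that guides class II chains, stood at 230.9 and 68.68 CPM against 10880 and 15400 in cornea and 21370 and 18280 in ciliary body macrophages (log2 -6.84 ± 0.50 and -7.50 ± 0.51). MHC class I was nearer to equal, with 1 of 8 genes higher against the cornea, H2-T23, and 3 of 8 lower against the ciliary body. The first count is near the 15.8% of all genes that were higher against the cornea, and says nothing of the list. Against the ciliary body 16.6% of all genes were lower. B2m did not pass in either comparison (log2 0.22 ± 0.28 and -0.26 ± 0.28). Class I genes have near-identical copies and their counts are uncertain.

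The disease-associated list went in both directions, with 3 rises and 8 falls of 18 tested genes in each comparison. Cd9 rose by log2 1.75 ± 0.29 and 2.56 ± 0.29 and Ctsl by 1.29 ± 0.30 and 1.83 ± 0.30. Apoe stood at 631.0 and 899.7 CPM in microglia, 10060 and 7878 in cornea and 18940 and 12910 in ciliary body macrophages (log2 -3.75 ± 0.37 and -4.66 ± 0.38). Fth1 fell by 1.44 (SE 0.29) and by 1.40 (SE 0.29) on the log2 scale, and Ctsb did not pass (0.11 ± 0.28 and -0.09 ± 0.28).

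Border macrophage markers fell in 5 of 8 tested cases in each comparison. Of all genes 17.3% fell against cornea and 16.6% against ciliary body macrophages. In each comparison 3 of the 8 markers were at 0 in microglia. They entered the test through the macrophages, where they are high, so their calls say nothing of the list. Mrc1 was at 0 in microglia, at 402.0 and 330.3 CPM in cornea and at 292.4 and 121.7 in ciliary body macrophages, at least 25.7-fold and at least 14.5-fold lower. Ms4a7 was at 0 in microglia and at least 18.1-fold and at least 26.1-fold lower. The orphan nuclear receptor Nr4a2 and the NF-kB inhibitor Tnip3 were also at 0 in microglia, with Nr4a2 at least 25.7-fold and at least 26.4-fold lower. Cytoskeleton genes fell in 7 of 12 cases against cornea and 11 of 12 against ciliary body macrophages, Tmsb4x by 1.06 (SE 0.29) and by 1.34 (SE 0.29) on the log2 scale.

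Transcripts of other cells moved with these comparisons as well. Photoreceptor markers rose in 5 of 16 cases against cornea and 6 of 16 against ciliary body macrophages (median log2 2.90 and 3.66). Of all genes 15.8 and 12.6% rose. Without microglia pair P2 the count of photoreceptor markers was 0 of 14 in both comparisons, and without cornea pair P2 it was 11 of 17 against cornea. Gnb1, which is not confined to photoreceptors, passed in both (1.09 ± 0.31 and 1.09 ± 0.30). Corneal epithelium markers fell in 3 of 8 cases against cornea macrophages, beside 17.3% of all genes. The part of such transcripts in the gene calls was not tested. Prefix P2 holds both retina and cornea libraries, and within it 374 genes rose and 366 fell of 1551 tested. There 5 of 5 markers and 21 of 27 sensing receptors rose, 16 of 17 cytokine and chemokine genes, 12 of 17 immediate early genes and 5 of 6 MHC class II genes fell, and 11 of 11 photoreceptor markers rose. The limit on genes that may have entered through the macrophages holds for these falls too.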

How the data were processed

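Transcripts of CD45+ cells were measured in 20 libraries of 192 wells, 4 for each of 5 groups, of which the unlesioned retina, cornea and ciliary body were used. The alignment tool was BWA 0.6.2-r126, per the submitters' processing notes. Which genome build, annotation and counter were used is not given in these sources. The authors deposited expected counts, that is, estimated transcripts per gene and well made from molecular identifiers, without normalization, and an annotation with a compartment, class, cluster and map coordinates (other values) per well.

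Members were the wells of class microglia. The members and gene lists were chosen with earlier results of these data known. Rows of the eye table were named by exact equality, to 5 decimals, with rows of the library tables. All 19705 rows above 0 matched, and 3234 that matched more than 1 gene stayed unnamed (0.472% of microglia transcripts). No doublet caller was run, since each well received 1 sorted cell, and no well was filtered out, although 11 of 119 fail a limit of 25% mitochondrial transcripts. The 119 wells lie at 91 plate positions, 23 of which are used in more than 1 library.

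Counts were summed over wells of a library (prefix comparison) or library pair (comparisons with macrophages), rounded, and tested with edgeR 4.0.16 in R 4.3.3 (filterByExpr, TMM, robust quasi-likelihood, Benjamini-Hochberg threshold 0.05). DESeq2 1.42.0 was an alternative. Depth was 31335 to 89628 transcripts per microglia sum, so 1 transcript was worth 11.2 to 31.9 CPM. Because sums were rounded for tests, levels there can differ in the last digit from those in the description. Errors are SD over libraries or SE of a log2 ratio. A group at 0 was given a floor of 3 transcripts over the group, and groups with 1 to 3 transcripts a ratio with an exact 95% counting interval. Intervals and floors cover counting error only. The script was tested on simulated counts.

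Named genes are the 25 most abundant outside mitochondrial and ribosomal protein genes, the 5 markers, up to 6 leading members of each list, the 15 widest and 10 steadiest genes by spread, and the 10 largest rises and falls of each test that pass a minimum level of 50 CPM (prefixes) or 100 CPM with no overlap of pairs (macrophages). Some genes that this rule names are not reported here. Alternatives were other scaling, no filter, passing wells, thinned sums, single libraries, the library number as a block, and each library or pair left out. An alternative added after the data were seen used all genes of the library tables.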

Additional observations from a re-analysis of the deposited data

Results flagged for a closer look

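The 4 control libraries were screened for 1 library far from the rest, over 81 levels and summed levels, and 3 were past the critical value. Chance flags about 1 in 20. B2m, the MHC class I light chain, stood at 6827 CPM in P1 library 1 and at 4221 to 4581 in the other 3. Mc1r stood at 1307 CPM in P2 library 3 and at 0, 0 and 212 in the others. The dendritic cell markers summed to 191.5 CPM in P1 library 2 and to 390.6 to 416.0 in the others.

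Gm10800, a gene that the eye table lacks and whose transcripts therefore enter none of the levels above, held 29.9% of all transcripts of the microglia wells. Its median share was 29.1% of a well in cluster 13, 34.1% in cluster 14 and 22.5% in cluster 15, and 11 and 14.8% in cornea and ciliary body macrophages.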

How the results depend on the processing

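Counts of called genes, marker levels, the count of genes of wide spread and cluster shares were set against their main values. Under alternatives 96 stayed close, 24 were weaker, 2 stronger and 1 moved. Close meant within a fixed fold for a count, within the SD over libraries for a level and within the exact interval for a share. A further 861 values stayed the same, a number that pools calls of genes named in the tests with levels of abundant genes and median spreads. Among the calls of named genes 79 missed the threshold and 0 changed direction. Between prefixes, 11 rises and 8 falls became 7 and 3 with DESeq2, and 5 and 2 with thinned sums. Falls numbered 3 without a filter on low counts and 13 with all genes of the library tables. With 1 library left out, which leaves a lone library assumed to vary like the others, rises ranged from 6 (without library 3) to 19 (without library 1) and falls from 3 (without libraries 1 or 3) to 12 (without library 2), with 9 and 4 without library 4. The library number as a replicate block gave 0 rises and 0 falls (62 genes at an unadjusted p under 0.05 in edgeR), but same-numbered libraries did not deviate together (correlation -0.0259 over 807 genes), so the numbers are not taken as pairs. Krt12, Krt6a, Gsto1, Gngt1, Gm43541 and RP23-271M19.2 passed in every setting but that block.

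Against cornea macrophages 745 rises became 389 with DESeq2, 84 with thinned sums, 485 with single libraries and 374 within prefix P2, and 812 falls became 140 with thinned sums and 366 within prefix P2. Against the ciliary body 592 rises became 311 with DESeq2 and 116 with thinned sums, and 780 falls became 120 with thinned sums. With 1 pair left out rises ranged from 322 to 613 and from 230 to 500, the lowest without microglia pair P2. Genes with a spread above 2 numbered 113 instead of 32 after thinning to 2000 transcripts. The cause of each shift was not tested, apart from fewer genes tested with thinned sums and within P2. Leaving out mitochondrial genes was not run, as the eye table lacks them. Depth, 31335 transcripts in the smallest microglia sum, limits what can be called: 1944 genes reached 100 CPM.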
